A study of Homo sapiens with 58 samples.

Results

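The 10 libraries described here, of 58 in the series, profile the RNA bound by HuR, an RNA-binding protein, near G3BP1 in unstressed cells, beside the HuR-bound RNA of the same line before that selection. They were chosen by title: 6 libraries labelled G3BP, Enrich and Mock and 4 labelled G3BP, Input and Mock. All came from Huh-7.5, a human hepatocellular carcinoma line, of genotype APEX-G3BP1, in which the peroxidase APEX is joined to the stress-granule protein G3BP1. Neither group received sodium arsenite, and both, enriched and input alike, went through the APEX reaction (0.5 mM biotin phenol for 30 min, then 1 mM hydrogen peroxide for 1 min), UV crosslinking at 400 and 200 mJ/cm2 and immunoprecipitation of HuR. The enriched libraries had a streptavidin capture in addition, so that the comparison asks which HuR-bound RNAs lie near G3BP1. The labels do not say whether the line is 1 clone, whether it keeps its own G3BP1, or whether libraries of a group are separate cultures. P-values therefore measure the spread between these libraries, which may be technical.

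HuR, encoded by ELAVL1, binds U-rich and AU-rich RNA. It is mostly nuclear, where it is found on introns of unspliced transcripts, and it moves to the cytoplasm with mRNAs, where it binds 3'UTRs and is known to stabilise many of them. G3BP1 is a cytoplasmic RNA-binding protein that nucleates stress granules after stress. In unstressed cells it is spread through the cytoplasm, and visible granules are few.

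Each library was placed by the prefix of its description in 1 of 3 library sets. JL0361 held input 1 and 2 and enriched 1 and 2, JL0388 held input 3 and enriched 3 and 4, and JL1024 held input 4 and enriched 5 and 6. The inputs held 1353 to 143744 tags in peaks and the enriched libraries 519 to 86419, and 4 of the 10 (enriched 1, 3 and 4 and input 4) held fewer than 2000. Depth moved with the capture step in opposite ways: in JL0388 the input was deep and both enriched libraries were shallow, and in JL1024 the reverse held. The share of a library's tags that fell in peaks was 9.98% ± 2.97 (SD, n = 6) in the enriched and 13.6% ± 5.47 (SD, n = 4) in the input libraries, a difference of -3.84 points within sets (two-sided exact permutation p 0.130), and it was higher in the enriched libraries in JL1024 alone, by 3.10 points. The cells' identity was checked on marker genes: 5 of 7 hepatocyte markers had tags, with 495 in AFP, 80 in APOB and 61 in ALB over the 10 libraries. Of 10 immune, endothelial and fibroblast markers 4 have peaks in the table, and PTPRC alone of these had any, 5 tags. Enriched 3 and 4 could not be told apart by their gene tags (chi-square, permutation p 0.197), while the pairs enriched 1 and 2, enriched 5 and 6 and inputs 1 and 2 differed (permutation p 0.001 each). With 500 tags drawn from each library, enriched 5 and 6 could not be told apart either (permutation p 0.649), while enriched 1, with 299 gene tags, and enriched 2 still differed (permutation p 0.026). For inputs 1 and 2 the permutation p at 500 tags was 0.066. Whether enriched 3 and 4 are 1 library is not settled. They were kept as separate libraries, and calls that are lost when they are counted once are given with both values. The tags of a gene count HuR-bound fragments, and more RNA near G3BP1 and more HuR per RNA cannot be told apart.

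A larger share of HuR tags lay in 3'UTRs after the G3BP capture. The 3'UTR share of the tags in peaks was 19.7% and 18.9% in inputs 1 and 2, 15.5% in input 3 and 14.8% in input 4. In the enriched libraries the lowest share was 22.6%, the median 27.1% and the highest 35.9%. The groups did not overlap: each of the 6 enriched libraries was above each of the 4 inputs. The means were 27.8% ± 5.25 (SD, n = 6) and 17.2% ± 2.46 (SD, n = 4). The set-weighted difference was 10.8 points, with 7.87 in JL0361, 17.4 in JL0388 and 8.62 in JL1024. The two-sided exact permutation test, which exchanged labels within library sets, gave p 0.0185, the smallest that its 54 arrangements allow. Adjusted over the 10 annotation classes (Benjamini-Hochberg) this is 0.0926. The test cannot pass 0.05 after adjustment with so few classes at its floor.

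**Figure D1:**
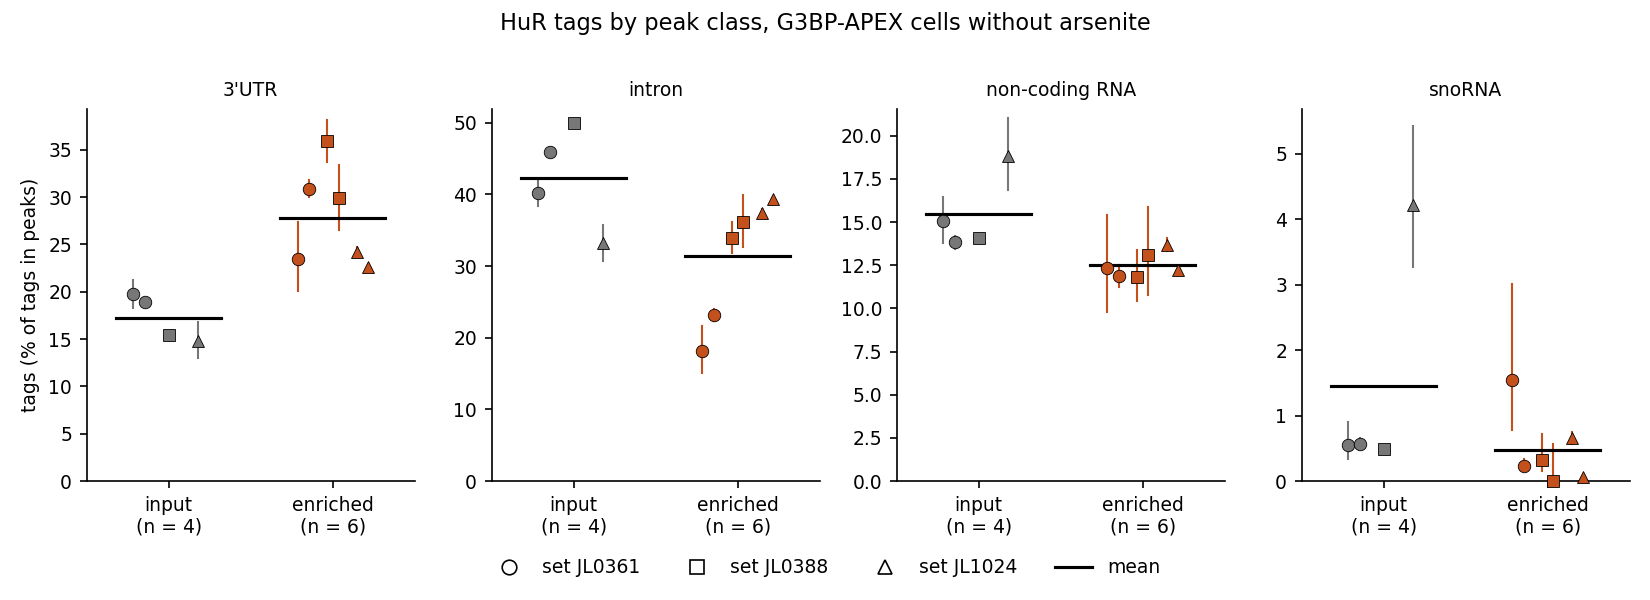
Share, of all tags in peaks of a library, in 3'UTR, intron, non-coding RNA and snoRNA peaks, in percent, for the 4 input and 6 enriched libraries. Symbols give the library set, vertical lines the 95% Wilson interval (counting error only) and horizontal lines the group mean. The 3'UTR points of the enriched libraries (22.6% to 35.9%) lie above all input points, and the snoRNA share of input 4 (4.21%) stands apart.

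The intron share, which reads unspliced RNA, was lower after capture in 2 of the 3 sets. It was 40.2%, 46.0%, 49.98% and 33.2% in inputs 1 to 4, and 18.1%, 35.1% and 39.3% at the lowest, median and highest of the enriched libraries. The set-weighted difference was -12.4 points (two-sided exact permutation p 0.0926, adjusted 0.185), and -19.4 without input 4. It was -22.4 in JL0361 and -14.9 in JL0388 but 5.22 in JL1024, where the shallow input 4 had the lowest intron share of the inputs and both enriched libraries were above it. The 2 intron annotations of the table behaved alike: plain introns differed by -16.4, -9.43 and 3.65 points in the 3 sets and retained introns of coding genes by -5.99, -5.46 and 1.63.

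Non-coding RNA peaks made up less of the enriched libraries. Their share was 15.1%, 13.8%, 14.1% and 18.8% in inputs 1 to 4 and between 11.9% and 13.7%, with a median of 12.3%, in the enriched libraries. The groups did not overlap, although input 2 and enriched 5 (13.8% and 13.7%) differed by less than their counting error. The set-weighted difference was -3.15 points (two-sided exact permutation p 0.0185, adjusted 0.0926). It was -2.36 in JL0361, -1.62 in JL0388 and -5.88 in JL1024, and without input 4 it was -2.06. Long non-coding RNAs carried this, with 11.3% ± 0.961 (SD, n = 6) of the enriched and 14.3% ± 1.94 (SD, n = 4) of the input tags. Small nuclear RNAs, transfer RNAs and ribosomal RNAs each held under 1.55% of every library, with set-weighted differences of 0.0754, -0.00741 and -0.0151 points.

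The remaining classes were small or mixed. Small nucleolar RNAs, which guide modification of ribosomal RNA in the nucleolus, held 0.469% ± 0.575 (SD, n = 6) of the enriched and 1.46% ± 1.84 (SD, n = 4) of the input tags (difference -1.06 points, two-sided exact permutation p 0.222, adjusted 0.317). Without input 4 the difference was 0.0643 points. That library decides the mean: 57 of its 1353 tags (4.21%, Wilson 95% interval 3.27% to 5.42%) were in snoRNA peaks, against 0.486% to 0.569% in the other 3 inputs. Enriched 4 had 0 of 679 snoRNA tags, and the upper Wilson bound of that share is 0.563%. Coding sequences held 0.668% ± 0.174 (SD, n = 6) and 0.613% ± 0.0654 (SD, n = 4), and 5'UTRs 0.519% ± 0.197 (SD, n = 6) and 0.797% ± 0.173 (SD, n = 4). The unadjusted exact permutation p of the other 6 classes lay between 0.0926 and 0.519.

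The 3'UTR share of a library can differ because other genes are sampled or because the same genes are sampled at other sites. In 6297 genes that have both 3'UTR and intron peaks, the 3'UTR share of their 3'UTR and intron tags was 34.4%, 29.9%, 24.3% and 32.5% in inputs 1 to 4 and 37.9%, 49.7% and 63.9% at the lowest, median and highest of the enriched libraries. The groups did not overlap, and the set-weighted difference was 21.6 points, 29.2, 25.4 and 6.54 within the sets. Each gene's 3'UTR share was taken from the 6 mock fraction libraries, for 5118 genes with at least 20 tags there. It was applied to the 3'UTR and intron tags of that gene in each capture and input library. More 3'UTR tags at the same genes would raise this expected share too, since genes with a high 3'UTR share would gain weight. The gene mix and the sites are therefore not separated by it. The share expected in this way was 44.4% ± 4.95 (SD, n = 6) in the enriched and 33.5% ± 2.54 (SD, n = 4) in the input libraries. The set-weighted difference was 11.96 points. The observed share exceeded the expected one by 5.64 points ± 5.81 (SD, n = 6) in the enriched and fell short of it in the inputs, at -3.31 points ± 2.26 (SD, n = 4). Both values were larger in the enriched libraries: the expected share and the observed share beyond it. Which part comes from the genes and which from the sites was not tested.

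**Figure D2:**
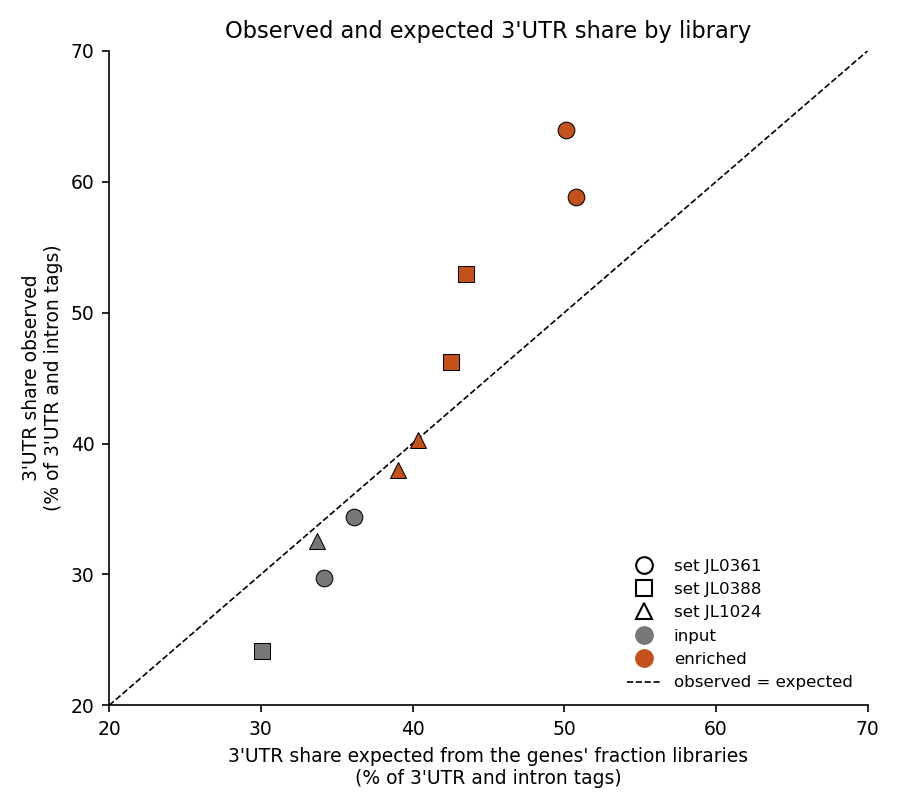
Observed 3'UTR share of 3'UTR and intron tags (vertical axis, percent) against the expected share (horizontal axis, percent), 1 point per library. The expected share weights each gene's share in the fraction libraries by the gene's tags in the library. Enriched libraries of JL0361 and JL0388 lie above the line of equality and all 4 inputs below it, and enriched 5 and 6 of JL1024 lie close to it, at -0.115 and -1.07 points.

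The size of observed minus expected differed between sets. Observed minus expected was 13.8 and 8.05 points in enriched 1 and 2, 9.39 and 3.73 in enriched 3 and 4, and -0.115 and -1.07 in enriched 5 and 6. In inputs 1 to 4 it was -1.73, -4.43, -5.95 and -1.15. The observed minus expected difference within JL1024 was 0.558 points, against 14.02 and 12.5 in the other sets. These measures were added after the class shares were seen. Adjusted over the 5 added measures, the exact permutation p (two-sided) was 0.0309 for the 3'UTR share in genes with both classes, for the expected share and for observed minus expected, each from an unadjusted 0.0185. With enriched 3 and 4 counted as 1 library the adjusted p was above 0.05, to 0.0694, 0.0694 and 0.0926 in that order. These 3 calls were also lost when input 1, 3 or 4 or enriched 2, 3 or 4 was left out. Leaving out any library gives the exact test fewer arrangements, and the cause of these losses was not tested.

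Peaks that differ between cell fractions were used as another measure. In the 6 mock fraction libraries, none of which is among the 10, limma called 4437 of 157168 peaks (2.82%) at an adjusted p under 0.05, 3604 higher in the cytoplasmic and 833 higher in the nuclear fraction. Cytoplasmic-fraction peaks held 12.7%, 13.1%, 7.59% and 9.68% of the tags of inputs 1 to 4, and 12.7%, 18.3% and 23.6% at the lowest, median and highest of the enriched libraries. Of the enriched libraries 5 were above all inputs, and the shallow enriched 1 (12.7%) was level with its own inputs. The means were 18.7% ± 3.83 (SD, n = 6) and 10.8% ± 2.61 (SD, n = 4), and the set-weighted difference was 8.12 points (two-sided exact permutation p 0.0556, adjusted over both fraction measures 0.0741). It was 5.26, 11.95 and 8.59 within the sets. Without enriched 1, a library of 519 tags, it was 10.4 points and passed the threshold (exact permutation, adjusted p 0.0370).

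**Figure D3:**
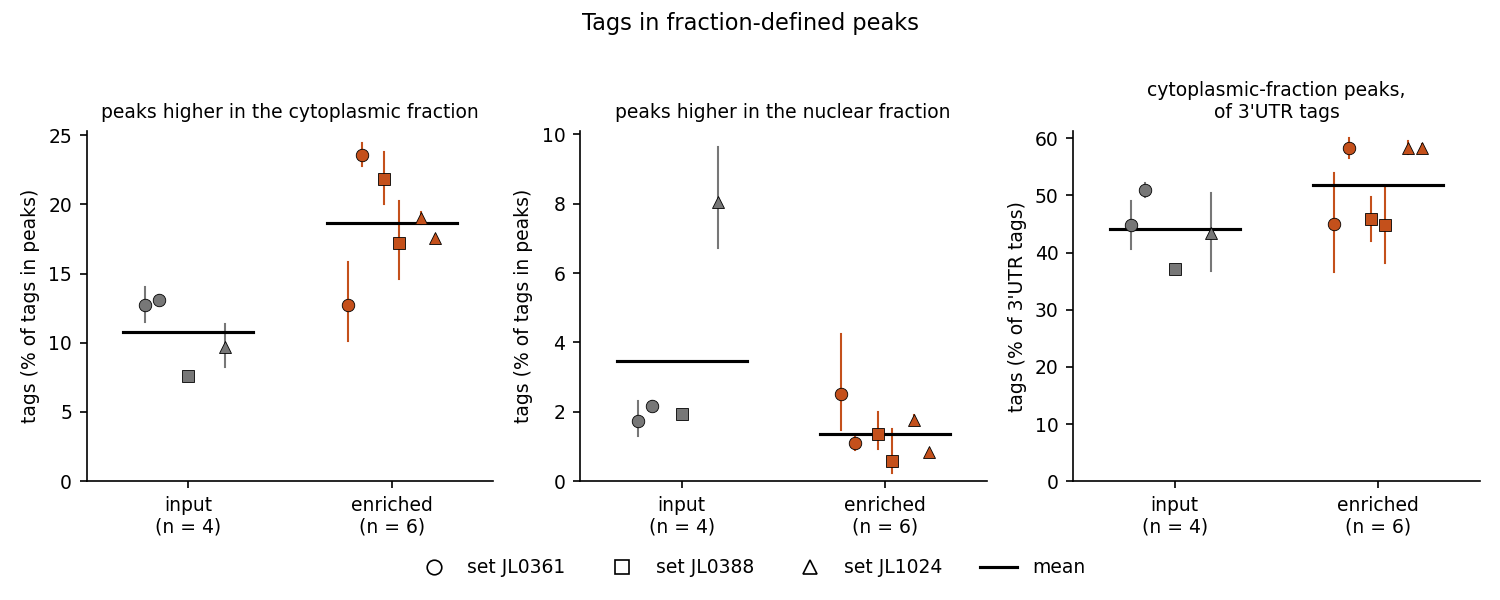
Share of tags in peaks called higher in the cytoplasmic or in the nuclear fraction (percent of tags in peaks), and share of 3'UTR tags in cytoplasmic-fraction peaks (percent of 3'UTR tags), by library. Symbols, intervals and lines are library sets, 95% Wilson intervals and means. Enriched libraries other than enriched 1 lie above all inputs in the first panel, and input 4 (8.06%) stands apart in the second.

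Nuclear-fraction peaks held little of either group. Their share was 1.73%, 2.16%, 1.93% and 8.06% in inputs 1 to 4, and 0.589%, 1.23% and 2.50% at the lowest, median and highest of the enriched libraries. The set-weighted difference was -2.27 points (two-sided exact permutation p 0.0741, adjusted 0.0741), and it was -2.86 without enriched 1 (adjusted 0.0370) and -0.470 without input 4. Within JL0361 it was -0.147, within JL0388 -0.954 and within JL1024 -6.76, where it rests on input 4, the library with the high snoRNA share.

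Since 79.3% of the cytoplasmic-fraction peaks are in 3'UTRs, the share was also taken among 3'UTR tags alone. There it was 44.1% ± 5.71 (SD, n = 4) in the input and 51.8% ± 7.17 (SD, n = 6) in the enriched libraries, with a set-weighted difference of 8.22 points (two-sided exact permutation p 0.0370, adjusted over the 5 added measures 0.0463, and 0.139 with enriched 3 and 4 counted as 1 library). This call held without input 2 or enriched 1 and was lost when any of the other 8 libraries was left out, and with labels permuted without the set (adjusted p 0.125). The groups overlapped, since enriched 1, 3 and 4 had 45.1%, 45.8% and 44.8% and input 2 had 50.97%. Within sets the difference was 3.80, 8.27 and 14.8 points. Among 500 tags drawn from a library, 475.9 ± 15.6 (SD, n = 6) distinct peaks are expected in the enriched and 481.4 ± 14.5 (SD, n = 4) in the input libraries (two-sided exact permutation p 0.389). Nearly every tag is then a peak of its own, and the difference was -26.6 in JL0361, -6.26 in JL0388 and 18.8 in JL1024.

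The other groups of the series place these shares. The nuclear fraction of mock cells had a 3'UTR share of 11.7% ± 0.542 (SD, n = 3) and the cytoplasmic fraction one of 42.3% ± 4.58 (SD, n = 3), so the G3BP-enriched mean of 27.8% lay between them. Libraries enriched with APEX carrying a nuclear export signal (NES), which directs a protein out of the nucleus, had 24.1% ± 13.7 (SD, n = 4) and their inputs 16.2% ± 1.11 (SD, n = 2). In the 2 sets that hold both lines, the enriched minus input difference in the 3'UTR share was 13.0 points for G3BP and 7.88 for NES (exact permutation of the line labels, two-sided p 0.208, adjusted over 4 shares 0.278). For the intron share it was -4.84 and -14.5 points (exact permutation p 0.0417, adjusted 0.111), for cytoplasmic-fraction peaks 10.3 and 7.23 (exact permutation p 0.278, adjusted 0.278) and for nuclear-fraction peaks -3.86 and 1.26 (exact permutation p 0.0556, adjusted 0.111). The sign of the difference between lines turned without NES input 2 for the 3'UTR share (-5.67 points) and the cytoplasmic-fraction share (-3.38) and without G3BP input 4 for introns (-0.420). No difference between the lines passed the adjusted threshold in this test of 6 against 6 libraries.

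After 0.5 mM arsenite for 45 min, the same line had 28.1% ± 4.45 (SD, n = 5) of its input tags and 44.8% ± 14.8 (SD, n = 7) of its enriched tags in 3'UTRs. The arsenite inputs were thus at the level of the mock enriched libraries. The enriched minus input difference was 10.8 points in mock cells and 16.4 after arsenite (exact permutation of the treatment labels, two-sided p 0.530, adjusted 0.530), and without arsenite input 4 the order of the 2 turned, by 0.800 points. For introns it was -12.4 and -21.8 points (exact permutation p 0.101, adjusted 0.404), for cytoplasmic-fraction peaks 8.12 and 12.4 (exact permutation p 0.512, adjusted 0.530), and for nuclear-fraction peaks -2.27 and -0.356 (exact permutation p 0.418, adjusted 0.530).

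**Figure D4:**
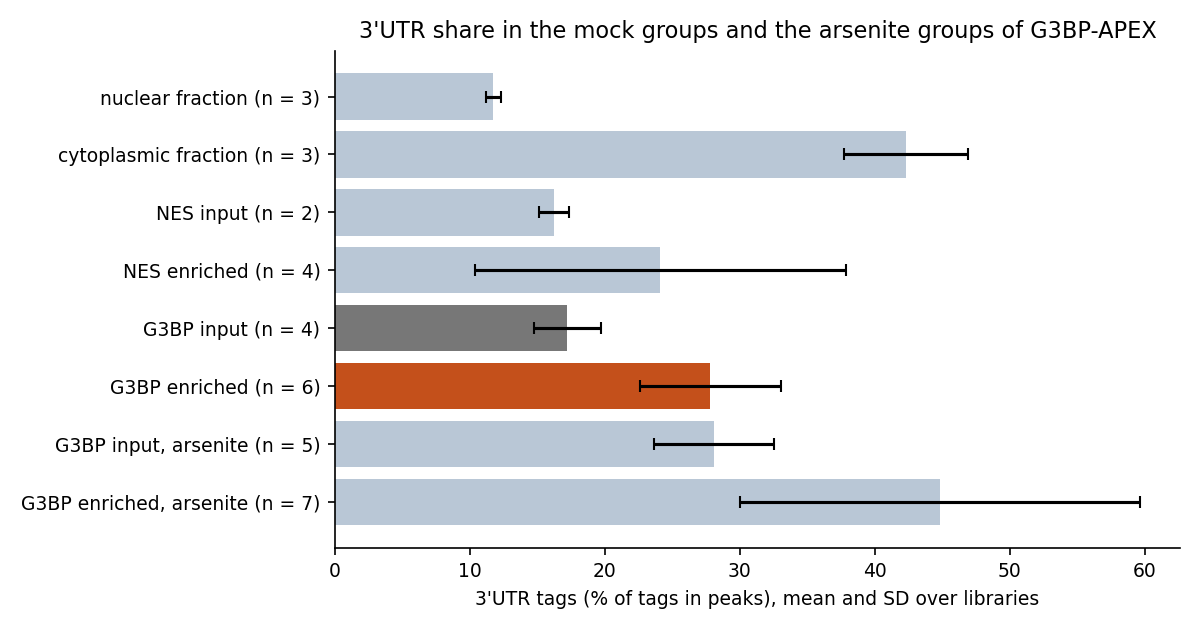
Mean 3'UTR share of the tags in peaks (horizontal axis, percent) with its SD over libraries, for 8 groups of the series. The G3BP mock enriched libraries (27.8%) lie above their inputs (17.2%) and between the nuclear (11.7%) and the cytoplasmic (42.3%) fraction.

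At the level of single genes no difference passed the test. Tags were summed over the peaks of each gene, expressed in CPM (tags per 1000000 of the library total) and tested with limma on log2(value + 25.6) with the library set as a covariate. Of 4145 genes tested, 0 (0%) were called at an adjusted p under 0.05, and the smallest adjusted p was 0.773. At an unadjusted p under 0.05 there were 143 genes lower (3.45%) and 6 higher (0.145%) in the enriched libraries, on a scale in which the median gene was at -0.19. With the tags in peaks as the library size the median was -0.05, and 95 genes were lower and 21 higher. With enriched 3 and 4 counted as 1 library, 114 of 4143 genes were lower and 16 higher. The balance depended on the scale: with the differences centred on their median, 48 genes were lower and 103 higher, and edgeR scaled to tags in peaks gave 185 lower and 208 higher at an unadjusted p under 0.05. Over all tested genes 3218 of 4145 (77.6%) had a log2 difference below 0, against which the counts of list members below 0 are to be read. That no gene was called does not show that genes did not differ. In 95 genes (2.29%) every enriched library was below every input of its set, and in 0 (0%) it was above. With the tags in peaks as the scale these were 71 (1.71%) and 4 (0.0965%). To be above, a gene needs tags in every enriched library, including enriched 1, 3 and 4 with 519, 1831 and 679 tags in peaks. To be below, it needs tags in the 4 inputs, and 0 tags in the enriched libraries is enough. The inputs alone also pass it through the filter. Depth therefore favours the count below, and no direction is read from these counts. EdgeR's quasi-likelihood test on the recovered tags called 7 genes (0.169%): ATCAY higher, and SETBP1, MRPS9, EIF4A2, SNORD104, NOP58 and TANGO6 lower. These 7 are given because the count is small, and were chosen after their values were seen.

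The genes below are therefore ranked, not called: those with at least 100 tags over the 10 libraries and an unadjusted limma p under 0.05, by the size of the log2 difference. Each had an adjusted p of 0.773. Some were called in other settings. Without the 4 shallow libraries JL0361 alone informs the step, with enriched 2 as its 1 enriched library against inputs 1 and 2, and that library is assumed to vary like the others. In that limma fit GPC6 (log2 difference -2.97, adjusted p 1.2e-05), PACS1 (-2.84, 0.00762), THRB (-2.69, 0.0229) and FNDC3B (-3.63, 0.0448) were lower. With edgeR on tags in peaks, ACTB (2.00, adjusted p 0.0113) and CTNNB1 (2.04, 0.0283) were higher and NR5A2 (-3.08, 0.0312) was lower. Without the shallow libraries limma gave CTNNB1 0.54 (adjusted p 0.874), ACTB 1.67 (0.504) and NR5A2 -3.66 (0.171). The 2 ranked higher both carried most of their tags in the 3'UTR. Of the 10 ranked lower, 9 carried most of their input tags in introns, as did 72.4% of the 503 tested genes with at least 100 tags.

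CTNNB1 (ENSG00000168036, chromosome 3, 41199505 to 41240443) encodes beta-catenin, a cell-adhesion and Wnt signalling protein. It had 101.3, 180.3, 166.0 and 0 CPM in inputs 1 to 4, and 158.0, 218.8 and 858.0 at the lowest, median and highest of the enriched libraries. Within each set the enriched libraries were above the input, other than enriched 1 beside input 2. The log2 difference was 1.61 ± 0.75 (SE, limma, unadjusted p 0.0320), and it was 2.54 without enriched 1 and 1.02 without input 4. Of its tags, 262 of 310 in the enriched and 116 of 167 in the input libraries lay in 3'UTR peaks.

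ACTB (ENSG00000075624, chromosome 7, 5527148 to 5530601) encodes beta-actin, and its mRNA is a known HuR target. It had 101.3, 687.9, 118.9 and 89.0 CPM in inputs 1 to 4, and 214.5, 541.6 and 852.7 at the lowest, median and highest of the enriched libraries. Input 2 alone was high among the inputs, above enriched 1 and below enriched 2 of its set, and in JL0388 and JL1024 the groups did not overlap. The log2 difference was 1.45 ± 0.63 (SE, limma, unadjusted p 0.0222). All 863 enriched and 239 of 240 input tags were in 3'UTR peaks. Near-copies of ACTB exist, so its tags are uncertain between them.

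**Figure D5:**
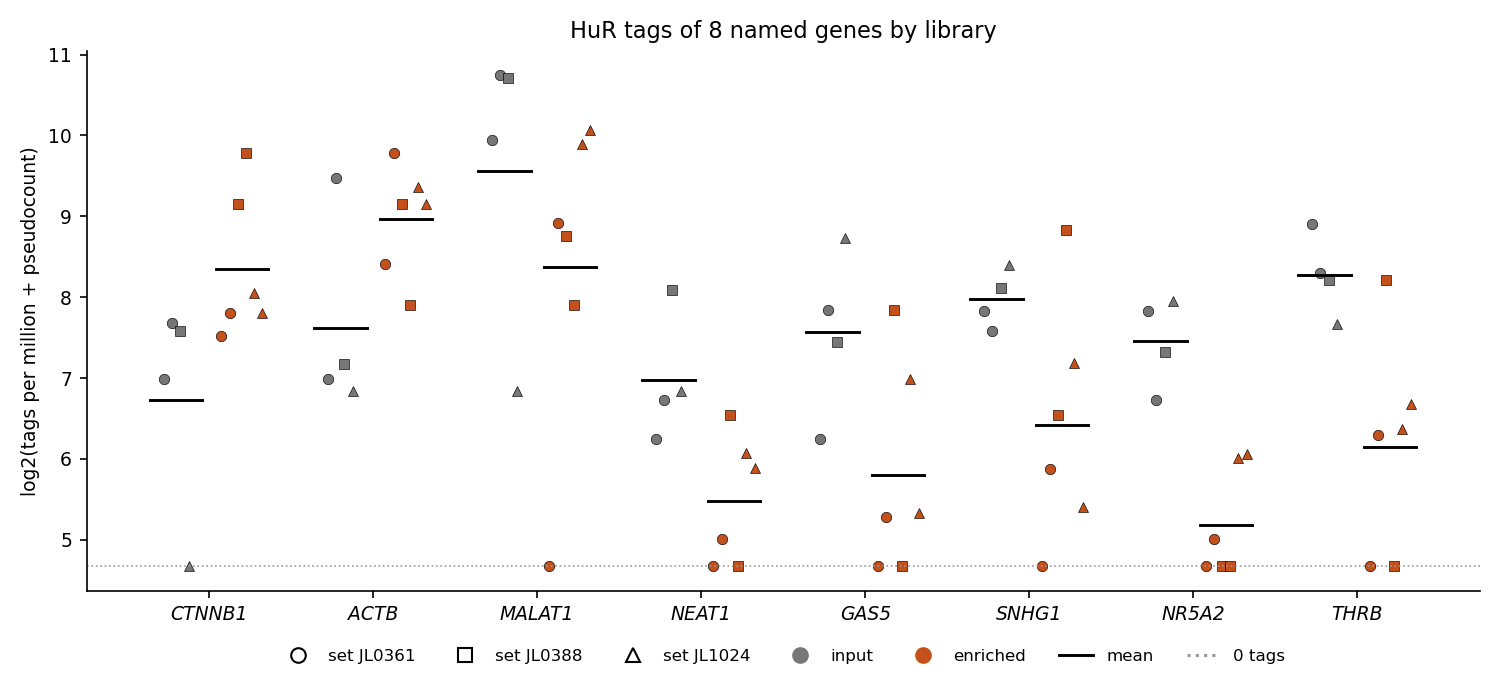
Level of 8 named genes in each library, as log2(CPM + 25.6). Symbols give the library set, colours the capture step, short lines the group means, and the dotted line the value of a library with 0 tags. CTNNB1 and ACTB are higher, and the other 6 genes lower, on average in the enriched libraries, and many shallow libraries lie on the dotted line.

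Lowest in the ranking was NR5A2 (ENSG00000116833, chromosome 1, 200027710 to 200177415), a nuclear receptor of liver. It had 202.6, 80.6, 134.6 and 222.5 CPM in inputs 1 to 4. In the enriched libraries it had 0 tags in enriched 1, 3 and 4 and 6.61, 38.9 and 41.3 CPM in enriched 2, 5 and 6, below the input of its set in each. The log2 difference was -2.35 ± 0.74 (SE, limma, unadjusted p 0.00154), and it was -4.08 without input 4. Its intron peaks held 108 of 129 input and 35 of 53 enriched tags, and its 3'UTR peaks 3 and 13. With 3'UTR peaks alone the log2 difference was 0.14.

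THRB, a thyroid hormone receptor, had 455.7, 289.4, 270.5 and 178.0 CPM in inputs 1 to 4, and 0, 54.9 and 271.0 at the lowest, median and highest of the enriched libraries, with a log2 difference of -2.17 ± 0.82 (SE, limma, unadjusted p 0.00780), and it was -3.61 without input 4 and -3.60 without enriched 3. Its highest enriched value was in enriched 3, level with input 3. GPC6, a cell-surface glypican, differed by -2.04 ± 0.78 (SE, limma, unadjusted p 0.00847; -1.49 to -4.28 with 1 library left out), and 545 of its 630 input tags were intronic. The other 7 had log2 differences between -1.997 and -1.85, and between -4.13 and -1.22 with 1 library left out. They are GALNT13 (a glycosyltransferase), CUX1 and MECOM (transcription factors), MSI2 (an RNA-binding protein), PACS1 (a sorting protein), FNDC3B and the snoRNA host GAS5. In the shallow libraries 1 tag is worth 44.5 to 214.5 CPM, so single tags move these values.

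Among the 7 tested nuclear long non-coding RNAs, 0 were called, and 3 were lower at an unadjusted p under 0.05 (3.45% of all genes tested were). The median log2 difference was -0.50, against -0.19 over all genes. Of the tags in peaks, this list held 0.517% to 1.22% in the inputs and 0% to 1.25% in the enriched libraries. In enriched 5 and 6 it held 1.12% and 1.25%. MALAT1 (ENSG00000251562, chromosome 11, 65497738 to 65506516), a nuclear speckle RNA, had 962.1, 1689, 1654 and 89.0 CPM in inputs 1 to 4. It had 0, 431.3 and 1045 at the lowest, median and highest of the enriched libraries. In JL0361 and JL0388 both enriched libraries were below the inputs, and in JL1024 both were above the shallow input 4, in which MALAT1 had 2 tags. The log2 difference was -1.31 ± 0.56 (SE, limma, unadjusted p 0.0203); it was -0.19 without enriched 1, -3.70 without input 4 and -1.48 without the 4 shallow libraries (limma, adjusted p 0.00326, on the 1 enriched library of JL0361). NEAT1, the scaffold of paraspeckles, had 50.6, 80.6, 247.0 and 89.0 CPM in inputs 1 to 4 and at most 67.8 in an enriched library, and every enriched library was below the inputs of its set. The log2 difference of NEAT1 was -1.66 ± 0.74 (SE, limma, unadjusted p 0.0247), with -3.16 without input 4 and -0.996 without input 3 as the ends of its range.

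The 8 tested snoRNA host long non-coding RNAs, whose introns release snoRNAs, all had log2 differences below 0 (77.6% of all genes did), with a median of -0.60, and 2 of them were lower at an unadjusted p under 0.05 (3.45% of all genes were). GAS5 had 50.6, 204.0, 149.0 and 400.4 CPM in inputs 1 to 4 and 0, 14.02 and 203.3 at the lowest, median and highest of the enriched libraries. SNHG1 had 202.6, 166.0, 252.2 and 311.4 in the inputs and 0, 50.4 and 429.0 in the enriched libraries, the last from 2 tags in enriched 4 (log2 difference -1.77 ± 0.81, SE, limma, unadjusted p 0.0299, and -2.84 without enriched 4). As a share of the tags in peaks this list held 0.258% to 1.48% of the inputs, the highest in input 4, and 0% to 0.492% of the enriched libraries.

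Cytosolic ribosomal protein genes, several of which also host snoRNAs in their introns, had 18 of 72 members tested, 2 above and 16 below 0 (77.6% of all genes were below), with a median of -0.33 and 4 lower at an unadjusted p under 0.05 (RPL14, RPL23A, RPL7A and RPS12), as were 3.45% of all genes. Their summed share was 0% to 0.578% in the enriched and 0.259% to 1.03% in the input libraries.

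The lists of cytoplasmic mRNAs were read mostly through a few genes. Known HuR target mRNAs held 0.111%, 0.608%, 0.221% and 0.222% of the tags of inputs 1 to 4, and 0.295%, 0.759% and 1.42% at the lowest, median and highest of the enriched libraries. Of the 1688 tags of this list, 1103 were in ACTB. Of its 10 tested members, 2 were above and 8 below 0 (77.6% of all genes were below). The median was -0.19, that of all genes. ACTB alone was higher at an unadjusted p under 0.05, as were 0.145% of all genes tested. NCL, which encodes nucleolin, differed by -0.43 ± 0.65 on the log2 scale (SE, limma, adjusted p 0.854). It had 0 to 6.61 CPM in enriched 1 to 4 and 176.5 and 97.4 in enriched 5 and 6, against 0 to 75.9 in the inputs. For CCND1, which encodes cyclin D1, the log2 difference was -0.24 ± 0.50 (SE, limma, adjusted p 0.881).

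Genes of stress-granule proteins had 22 members tested, 6 above and 16 below 0 (77.6% of all genes were below), with a median of -0.24. PUM2, an RNA-binding repressor, was the 1 member lower at an unadjusted p under 0.05, as were 3.45% of all genes. The share of tags in this list was 0.358% to 0.765% in the enriched and 0.517% to 0.655% in the input libraries. ATXN2 and PUM2 had 140 tags each, most of them in introns. Of 6 RNAs known to enter stress granules, 5 were in the table and 3 were tested, with 107 tags in all. NORAD, a cytoplasmic long non-coding RNA, had 29 enriched and 17 input tags. CDK6 had 14 and 13 and DYNC1H1 2 and 13. G3BP1 itself (ENSG00000145907) had 49 enriched and 56 input tags, of which 45 and 46 lay in its 3'UTR, and ELAVL1 (ENSG00000066044) had 9 and 23. Tags of the APEX-G3BP1 construct and of the cells' own G3BP1 cannot be told apart.

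HNRNP and SRSF genes, which encode splicing regulators, had 27 members tested, 9 above and 18 below 0 (77.6% of all genes were below). The median was -0.11, and HNRNPC alone was lower at an unadjusted p under 0.05, as were 3.45% of all genes. HNRNPH1 had 67.8 to 244.6 CPM in enriched 1 to 4 and 469.7 and 576.1 in enriched 5 and 6, against 199.9 to 303.6 in the inputs, and its log2 difference was -0.034 ± 0.70 (SE, limma, adjusted p 0.989). Its 3'UTR held 602 of 741 enriched and 147 of 227 input tags. Chaperone genes had 16 members tested, 4 above and 12 below 0 (77.6% of all genes were below), with a median of -0.09. HSPA8 was lower at an unadjusted p under 0.05, as were 3.45% of all genes. The list was led by CANX, with 118 of 119 enriched and 115 of 124 input tags in the 3'UTR. Hepatocyte secreted protein genes (10 tested, 2 above and 8 below 0, median -0.55, ALB and AMBP lower at an unadjusted p under 0.05, beside 77.6% below 0 and 3.45% lower over all genes) included ALB, with a mean of 3.91 CPM in the enriched and 50.5 in the input libraries (log2 difference -1.11), and AFP, with 225.9 and 197.4 (log2 difference 0.57). Mitochondrially encoded genes had 16 members tested, 3 above and 13 below 0 (77.6% of all genes were below), with a median of -0.22. This list held 0.117% to 1.73% of the enriched and 0.221% to 1.63% of the input tags. MT-RNR2, the large mitochondrial ribosomal RNA, had 140 enriched and 791 input tags, 632 of the latter in input 3. Cytoplasmic long non-coding RNAs (3 tested) had a median of 0.44. This is the value of OIP5-AS1, with 7 enriched and 9 input tags, for which edgeR gave -0.43. Its highest enriched value, 158.0 CPM, is 1 tag in enriched 1. NORAD had 214.5 CPM from 1 tag in enriched 4, and 19.8, 20.9 and 19.1 in enriched 2, 5 and 6. In inputs 1 to 4 it had 0, 19.0, 17.0 and 0 CPM. No member of these lists was called by limma, and some genes are in more than 1 list.

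Single peaks of 20 nt were tested as well. Of 2493 peaks tested with limma, 0 (0%) were called, with 14 higher (0.562%) and 18 lower (0.722%) at an unadjusted p under 0.05. The coordinates are those of the table (GRCh38.p14). The peak with the most tags was in MALAT1 (chromosome 11, 65501022 to 65501042), with 14, 238, 584 and 2 tags in inputs 1 to 4 and 0, 49, 1, 0, 216 and 741 in enriched 1 to 6. Its log2 difference was -1.79 ± 0.46 (SE, limma, adjusted p 0.227), the smallest adjusted p of the test. This peak was called lower when input 1, 2 or 4 or enriched 2 was left out, with log2 differences of -2.27, -1.19, -4.61 and -1.80. It was not called when any of the other 6 libraries was left out, and was -0.72 without input 3. In JL1024 both enriched libraries were above input 4, in which the peak had 2 tags.

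The next 4 by tags were in ACTB (3'UTR, chromosome 7, 5527610 to 5527630, 734 enriched and 165 input tags), MT-RNR2 (chromosome MT, 3197 to 3217, 42 and 522 tags), HNRNPH1 (3'UTR, chromosome 5, 179614327 to 179614347, 462 and 68 tags) and SPTBN1 (3'UTR, chromosome 2, 54669256 to 54669276, 249 and 185 tags). SPTBN1, which encodes a spectrin of the membrane skeleton, also ranked among the higher peaks, with 0, 42, 142 and 1 tags in inputs 1 to 4 and 1, 17, 5, 4, 57 and 165 in enriched 1 to 6. Its log2 difference was 1.29 ± 0.65 (SE, limma, adjusted p 0.944), and 0.92 to 1.95 with 1 library left out. It was called higher without input 2 (1.55) or input 4 (1.76) and in none of the other 8 such fits. The other ranked higher peak was in the 3'UTR of SMU1 (chromosome 9, 33046571 to 33046591), a splicing factor gene. It had 1 tag in input 3 and 0 in the other inputs, and 5, 13 and 16 tags in enriched 1, 5 and 6 and 0 in enriched 2 to 4, and its log2 difference was 1.35 ± 0.64 (SE, limma, adjusted p 0.944), with 2.25 without enriched 3 or 4 and 0.92 without input 2.

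The ranked lower peaks besides that of MALAT1 were in EIF4A2 and RPL23A. The EIF4A2 peak (chromosome 3, 186784826 to 186784846), annotated as snoRNA and within the gene of a translation factor that hosts snoRNAs, had 1, 23, 4 and 3 tags in inputs 1 to 4 and 3 in sum over the 6 enriched libraries. Its log2 difference was -1.59 ± 0.65 (SE, limma, adjusted p 0.944), and it was -2.93 without enriched 3 or 4 and -1.04 without input 2. EdgeR with library totals gave -5.12 (adjusted p 0.0212). The RPL23A peak (chromosome 17, 28720587 to 28720607), annotated as 5'UTR, had 20 input and 3 enriched tags (log2 difference -0.94 ± 0.43, SE, limma, adjusted p 0.944, and -2.31 without input 1 to -0.58 without enriched 6). RPL23A is a ribosomal protein gene with many near-copies, so its tags are uncertain.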

How the data were processed

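The measurements are coCLIP libraries (APEX labelling followed by CLIP of HuR). The authors deposited 1 table of 20-nt peaks on GRCh38.p14 with a signal per library, and Bowtie2, HOMER, SAMtools and bedtools are named, per the submitters' processing notes, without versions. The deposited signal is the number of tags in a peak divided by a library total, and whole tags were recovered for 100% of values (within 0.1 tag). Of 395471 lines, 8257 repeats were dropped. Whether coordinates start at 0 or 1 is not given in the sources used here. No genome was used, so no sequences are shown.

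Genes (tags summed over peaks with that gene name; 84358 peaks have none, and 78.7% of tags are in peaks with one) and peaks non-zero in at least 4 libraries were tested with limma 3.58.1 (R 4.3.3; lmFit, eBayes with trend) on log2(CPM + 25.6), with the library set as covariate and Benjamini-Hochberg adjustment. A log2 difference on this scale understates low features. edgeR 4.0.16 on recovered tags was an alternative. Shares were compared by exact permutation within sets (Python 3.11.15, scipy 1.17.1), and the fits were tested on simulated data. Named genes are called genes, filled to 10 per direction with genes of at least 100 tags at an unadjusted p under 0.05, plus 5 single genes, the 3 members of each list with the most tags, the 5 peaks with the most tags, and 3 peaks per direction with at least 20 tags. 1 gene that this rule names is not reported here. Members and lists were chosen with earlier results of these data known. Gene coordinates are from RefSeq, for 43 of 46 named genes. Wilson intervals (95%) cover counting error only, since tags need not be independent molecules. Alternatives were other scalings, pseudocounts, filters, tests, sample weights, single sets and left-out libraries. The edgeR fits without shallow libraries and on tags in peaks, the 3'UTR-only sums, the added measures and the counting of enriched 3 and 4 as 1 library were chosen after seeing the data.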

Additional observations from a re-analysis of the deposited data

Results flagged for a closer look

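Of 66 groups of 4 or 6 libraries checked, 8 held a library far from the others, and chance gives about 5%. Input 4, a library of 1353 tags, stood apart from the other inputs in its snoRNA share (4.21%), in its nuclear-fraction share (8.06%) and, on the low side, in GPC6 (89.0 CPM, 2 tags). Input 1 stood apart in the share of tags up to 10 kb downstream of genes (2.07%), and input 2 in ACTB (687.9 CPM). Among the enriched libraries, enriched 3 stood apart in THRB (271.0 CPM) and enriched 4 in PACS1 (429.0) and in SNHG1 (429.0), where 429.0 is worth 2 tags.

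The enriched minus input difference in the intron share differed by 9.65 points between the G3BP and NES lines (exact permutation of the line labels, two-sided p 0.0417, adjusted over 4 shares 0.111), so it did not pass after adjustment.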

How the results depend on the processing

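The 3'UTR share stayed higher in the enriched libraries in each alternative run, and within each set. The counts of called genes and peaks depended on the setting. Of genes, limma without a filter called 3, edgeR 7 with library totals and 25 with tags in peaks, limma and edgeR without the 4 shallow libraries 15 and 20, and sample weights, whose estimate did not converge, 1148. Of peaks these counts were 12 without a filter, 1 with a pseudocount 4 times larger, 3 and 2 with edgeR on library totals and tags in peaks, 130 with sample weights and 1 within JL0361. Of list members, 2 were called without a filter (0.0286% of all genes were), 37 with weights (27.7%), 1 and 3 without shallow libraries (limma 0.265%, edgeR 0.353%) and 1 with edgeR on tags in peaks (0.603%). Leaving out each library gave 0 to 0 genes, 0 to 3 peaks and 0 to 0 list members. With the replicate number as a block, 0 genes and 0 peaks were called; same-numbered libraries share only a number (correlations of deviations 0.050, -0.018 and 0.104).

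With 3'UTR peaks alone, NR5A2 turned to 0.14 (edgeR 1.86) and CUX1 to 0.038 (edgeR 0.81), and the SPTBN1 peak was -0.77 with edgeR's TMM and -0.27 with edgeR without shallow libraries. Within JL1024 the difference turned to 5.22 points for introns, -3.95 for unannotated peaks, -1.92 for transposable elements (TE), -0.00814 for CDS, 3.10 for the percent of tags in peaks and 18.8 for distinct peaks. Within JL0388 it was -0.0420 for unannotated peaks, -0.631 for Other and -0.465 for TE, and within JL0361 0.322 for snoRNA. Without shallow libraries, which leaves JL0361 alone to inform the step, it was -0.0263 for downstream 10K and -0.0824 for CDS. With the block, snoRNA was 0.162. With labels permuted over all libraries without the set, ncRNA (-2.95), cytoplasmic-fraction (7.89) and nuclear-fraction shares (-2.11) passed 0.05 after adjustment.

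The 4 added measures that passed 0.05 lost their call within each set, without shallow libraries, with the replicate block and with enriched 3 and 4 counted once. In that order (JL0361, JL0388, JL1024, shallow, block, once) the values were 29.2, 25.4, 6.54, 26.7, 29.1 and 21.4 for the 3'UTR share in genes with both classes, 15.3, 12.95, 5.99, 15.6, 14.7 and 11.9 for the expected share, 14.02, 12.5, 0.558, 11.1, 14.5 and 9.53 for observed minus expected, and 3.80, 8.27, 14.8, 10.4, 5.45 and 8.22 for cytoplasmic-fraction peaks among 3'UTR tags, which was 7.69 without the set. Leaving out each library gave 19.5 to 27.7, 11.1 to 14.3, 8.07 to 13.4 and 5.59 to 11.2. It gave -1.50 to 0.0643 for snoRNA, -0.119 to 3.62 for unannotated peaks, 6.59 to 10.4 for cytoplasmic-fraction and -2.86 to -0.470 for nuclear-fraction peaks. For the G3BP against NES difference it gave -5.67 to 15.96 (3'UTR), -0.420 to 19.7 (intron), -3.38 to 9.46 (cytoplasmic-fraction) and -8.03 to -2.22 (nuclear-fraction). For mock against arsenite it gave -10.6 to 0.800 (3'UTR), 2.40 to 12.1 (intron), -7.88 to -1.52 (cytoplasmic-fraction) and -2.50 to -0.114 (nuclear-fraction). The causes were not tested. Sequence features were not run, since no genome was used.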
